A study of Ovis aries and Mus musculus with 20 samples.

Results

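The chromatin regions described here are the 20-kb bins of the sheep genome that lay in the B compartment in mesenteric adipose (MAD) and in the A compartment in both other visceral depots, the greater omentum (GOM) and the retroperitoneal adipose (RAD). There were 1631 such bins, 32.62 Mb in all, or 1.26% of the 129241 bins outside chromosome 14. In the 3 MAD libraries their index lay modestly below 0, with medians of -0.419, -0.187 and -0.272, against 0.586, 0.678 and 0.208 in GOM and 0.159, 0.337 and 0.563 in RAD. Most lay alone, but 446 of them (27.3%) formed 105 runs of at least 3 adjacent bins, the longest of 320 kb on chromosome 19. When bins were chosen in the same way on 2 of the 3 sheep, MAD again lay below the mean of GOM and RAD in the sheep left out, by a smaller amount. The MAD index itself was below 0 in 61.1%, 47.1% and 51.5% of those bins, against 50.3%, 50.1% and 50.1% of all bins.

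Chromatin in the nucleus is sorted into A compartments, which are open, gene-rich and transcribed, and B compartments, which are compact, gene-poor and often held at the nuclear lamina. Loci of a compartment contact other loci of that compartment more than expected, and a locus can move between compartments as cells take on a different identity. Within compartments, chromatin folds into topologically associating domains (TADs), stretches that contact themselves more than their neighbours and end at boundaries. The greater omentum hangs from the stomach, mesenteric adipose lies along the vessels and lymph nodes of the gut, and retroperitoneal adipose lies behind the abdominal cavity around the kidneys.

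*In situ* Hi-C, in which neighbouring DNA ends are joined inside the nucleus and the joined pairs sequenced, was done on MAD, GOM and RAD of 3 female small-tail Han sheep of 2 years, with 1 library per depot and animal. All 3 depots came from the same animals, numbered sheep 1 to 3 here. The nuclei came from the adipocyte-containing layer of thawed tissue, so each library is an average over the cell types of that layer, and a change in a few cells cannot be told apart from a small change in all of them. By the study's sample list, the MAD libraries held fewer valid contacts than every GOM and RAD library; the part of this in the results was not tested.

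Compartments were read as the A-B index, a signed score for each 20-kb bin of each library: how far its contact with A chromatin on the chromosome exceeded expectation, less the same for B chromatin. The bins were chosen by this index itself: the mean over the 3 MAD libraries was below 0, while the means over the 3 GOM and over the 3 RAD libraries were both above 0. The values by which the bins were selected are therefore described without a test. Chromosome 14 was set aside by the rule. There 256 bins, 7.20% of the chromosome, met the same criterion.

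The same criterion turned to the other depots found similar numbers. Bins in B only in GOM numbered 1343 (1.04%) and bins in B only in RAD 1767 (1.37%), whereas 3081 bins (2.38%) were in A only in MAD. The index of MAD was higher over the whole genome, by a median of 0.19 over all bins relative to the mean of GOM and RAD; the part of this in the counts was not tested. After quantile normalization, which gives all 9 libraries the same distribution, 2711 bins were in B only in MAD and 2259 in A only in MAD, against 1371 in B only in GOM and 1170 in B only in RAD. The order of MAD and RAD, and of B and A in MAD, thus turned round with the scaling. Of the 1631 bins, 1602 were among the 2711.

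Over the 1631 bins, the mean index was -0.370 ± 0.113 in MAD, 0.567 ± 0.206 in GOM and 0.429 ± 0.181 in RAD (SD over libraries, *n* = 3 each). Over all bins it was -0.0139 ± 0.0292, -0.172 ± 0.0880 and -0.259 ± 0.0571. The bins crossed the line between compartments at low absolute values, which a criterion of opposite signs favours. A MAD mean between -1.08 and -0.0156 was found in 90% of them, while 90% of all bins had one between -5.08 and 5.03. The shift of a bin, its MAD mean minus the mean of GOM and RAD, had a median of -0.79, and 559 bins (34.3%) were shifted by at least 1 index unit and 42 by at least 2 toward B. In sheep 1, 2 and 3 alone the median shift was -0.88, -0.75 and -0.72, and over all bins it was 0.19, 0.19 and 0.20.

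**Figure D1:**
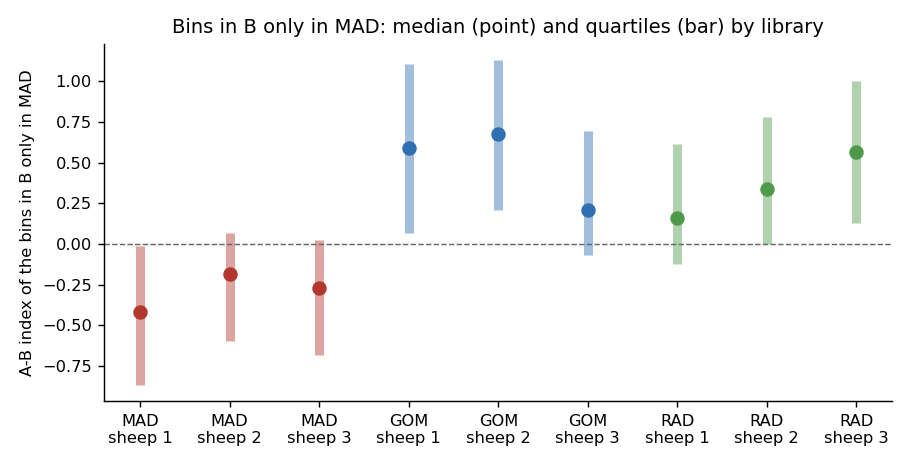
A-B index of the 1631 bins in B only in MAD, by library (horizontal axis, MAD, GOM and RAD of sheep 1 to 3). Points are medians over bins and bars span the lower to the upper quartile, in index units; the dashed line separates A (above) from B (below). The MAD medians lie between -0.419 and -0.187 and the GOM and RAD medians between 0.159 and 0.678, on the sides that the choice of bins fixed.

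Libraries of a depot often disagreed on a single bin. The SD of the index over the 3 libraries of a depot had a median of 0.460 in MAD, 0.510 in GOM and 0.492 in RAD, larger than the distance of the median MAD mean (-0.268) from 0. All 3 MAD libraries were below 0 in 572 bins (35.1%), 2 were in 765 and 1 was in 294. All 6 GOM and RAD libraries were above 0 in 394 bins (24.2%), and all 9 libraries lay on the side of their depot in 84 (5.15%). The criterion held in no sheep on its own 3 libraries in 278 bins, in 1 sheep in 760, in 2 sheep in 509 and in all 3 sheep in the same 84. These 84 bins lay on 16 chromosomes, had a median shift of -1.38 and fell in runs of at least 3 bins in 54 cases.

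Many bins sat close to the threshold. At least 1 depot mean was within 0.1 of 0 in 725 bins (44.5%), all 3 means were at least 0.25 from 0 in 396 bins, at least 0.5 in 101 and at least 1 in 11. The 5 bins just inside had MAD means of -0.00003 (chromosome 5 at 43420001), -0.00022 (chromosome 4 at 115920001), -0.00039 (chromosome 9 at 26240001), -0.00041 (chromosome 16 at 22020001) and -0.00056 (chromosome 9 at 70540001). The 5 just outside had means of 0.000035 (chromosome 4 at 55240001), 0.0001 (chromosome 1 at 58020001), 0.00016 (chromosome 7 at 79920001), 0.00019 (chromosome 2 at 58800001) and 0.00021 (chromosome 23 at 30160001). The bin of chromosome 16, inside, had means of 1.57 in GOM and 1.14 in RAD, and that of chromosome 23, outside, 1.98 and 0.653. In 14 of the 1631 bins (0.858%) all 9 libraries were within 0.1 of 0, against 0.894% of all bins, and in 81 (4.97%) all 9 were within 0.5 of 0, against 1.44% of all bins.

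In the index as deposited, single bins did not pass a test across the genome. With limma and Benjamini-Hochberg adjustment over all 132797 bins, 0% of the bins outside chromosome 14, and so none of the 1631, were lower in MAD than the mean of GOM and RAD at an adjusted *p* under 0.05. At an unadjusted *p* under 0.05, 4.03% of bins were lower in MAD (5211 of 129241), and 710 of the chosen bins were (43.5%). The 3 MAD libraries lay below all 6 GOM and RAD libraries in 1.79% of bins (2312) and in 363 of the chosen bins (22.3%). The choice used this contrast, so the shares of the chosen bins describe them and add no evidence. With the sheep as a block the count at the adjusted threshold was also 0. The smallest adjusted *p* by limma over all 132797 bins, in either direction, was 0.0547 without the block and 0.0855 with it. After quantile normalization 955 of the 132797 bins passed, 466 of them lower in MAD, and 75 of the 2711 bins then in B only in MAD were among them. In windows of 100 kb, 3530 of 26570 passed, 764 of them lower in MAD, and 97 of the 248 windows in B only in MAD were among them. The 132797 bins and 26570 windows include chromosome 14, whereas the 2711 bins and 248 windows in B only in MAD do not.

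The 1631 bins formed 1146 runs, counting adjacent bins with no gap. Of these, 897 were single bins, 144 were pairs, 105 had at least 3 bins and 28 at least 5. Longer runs held stronger members: the median shift was -0.62 in single bins, -0.81 in pairs, -1.09 in runs of at least 3 bins and -1.28 in runs of at least 5. All 9 libraries lay on the side of their depot in 1.90% of single bins and 12.1% of bins in runs of at least 3. Bins in B only in GOM had 62 runs of at least 3 bins, with 17.0% of their bins, and those in B only in RAD 83, with 17.8%. After quantile normalization these shares were 27.5% for MAD, 17.9% for GOM and 16.2% for RAD, and those of bins in A only in MAD were larger, 41.4% as deposited and 39.6% after normalization. These differences were not tested, since neighbouring bins share contacts.

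The most frequent place of a run was between A and B chromatin shared by the depots. Read outward from each run to the nearest bins where all 3 depots had the same sign, 531 of the 1146 runs (46.3%) had A on 1 side and B on the other, 425 (37.1%) had A on both sides, and 190 (16.6%) had B on both sides. These bins of shared sign adjoined the run on both sides in 520 runs (45.4%) and were otherwise up to 22 bins away, so a run need not be continuous with either side. Among the 105 runs of at least 3 bins, 56 had A on 1 side and B on the other, 42 had A on both sides and 7 had B on both sides. The share with A on 1 side and B on the other was 45.4% for runs in B only in GOM and 39.3% for those in B only in RAD. For RAD, A on both sides was more frequent, at 47.0%. Among GOM runs of at least 3 bins it was also more frequent, at 53.2% against 38.7%. The B segment of MAD that contained a run had a median length of 120 kb, and the A segments that contained it in GOM and RAD had medians of 260 and 160 kb.

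The longest run lay on chromosome 19 from 13320001 to 13640000 of Oar_rambouillet_v1.0 (16 bins). Its mean index was -1.06, -0.336 and -0.623 in MAD, against 0.498, 0.909 and 0.0856 in GOM and -0.327, 0.925 and 0.556 in RAD. The MAD libraries were lowest but RAD of sheep 1 was level with MAD of sheep 2, on the B side. The shift was -1.14, -1.25 and -0.94 in sheep 1 to 3. The bins on either side were A in all depots, and in the plot of this locus the index of all depots dropped to a trough at the run, which went below 0 in the mean of MAD.

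The next runs were of 220 kb each. On chromosome 1 from 118360001 to 118580000 the index was -1.11, -0.413 and -0.834 in MAD, against 1.65, 1.03 and 0.939 in GOM and -0.0633, 0.771 and 0.915 in RAD, and its shift of -1.66 was the largest of the 10 longest runs. On chromosome 8 from 85360001 to 85580000 it was -1.08, -0.310 and -0.775 in MAD, against 1.33, 1.17 and 0.228 in GOM and 0.523, 0.885 and 1.30 in RAD. The MAD libraries did not overlap the others in either run. On chromosome 8 all 9 libraries lay on the side of their depot, with B to the left and A to the right.

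Of the 3 runs of 180 kb, that on chromosome 1 from 114260001 to 114440000 had -1.31, -0.168 and -0.808 in MAD, against 1.18, 0.690 and 0.462 in GOM and -0.213, 0.963 and 0.818 in RAD. The groups overlapped there, again through RAD of sheep 1. The run on chromosome 16 from 21860001 to 22040000 had -0.281, 0.0704 and -0.845 in MAD, against 1.33, 1.30 and 0.495 in GOM and 0.865, 0.710 and 0.908 in RAD, with no overlap although MAD of sheep 2 was above 0. The run on chromosome 13 from 78540001 to 78720000 was the least uniform, with -0.681, -0.0380 and 0.0529 in MAD, against 0.341, 0.70 and -0.113 in GOM and -0.0688, 1.09 and 1.05 in RAD, and a shift of -0.72.

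The 4 runs of 160 kb were at 18140001 to 18300000 of chromosome 17, at 21000001 to 21160000 of chromosome 16, at 113620001 to 113780000 of chromosome 1 and at 138560001 to 138720000 of chromosome 2. Their depot means were -0.378, -0.597, -0.589 and -0.535 in MAD, against 0.973, 0.626, 0.756 and 0.505 in GOM and 0.698, 0.598, 0.434 and 0.368 in RAD, in that order. The MAD libraries were below all GOM and RAD libraries in each of these 4 runs, though in the last 2 MAD of sheep 2 was above 0. It was 0.0390 in the run of chromosome 1, against 0.0425 in RAD of sheep 1. In the run of chromosome 2 it was 0.0880, against 0.187 in GOM of sheep 3. Over the 10 longest runs the shift was below 0 in each of the 3 sheep, from -2.0 to -0.35. The libraries that most often fell on the wrong side were RAD of sheep 1, above 0 in 6 of the 10, and MAD of sheep 2, below 0 in 7 of the 10. Over the 105 runs of at least 3 bins, 27 had all 9 libraries on the side of their depot and 103 had a shift below 0 in every sheep. The runs were built from bins chosen on these same libraries, and no like count was made over other stretches. The sides, signs and lack of overlap given for the runs therefore describe them and add no evidence.

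**Figure D2:**
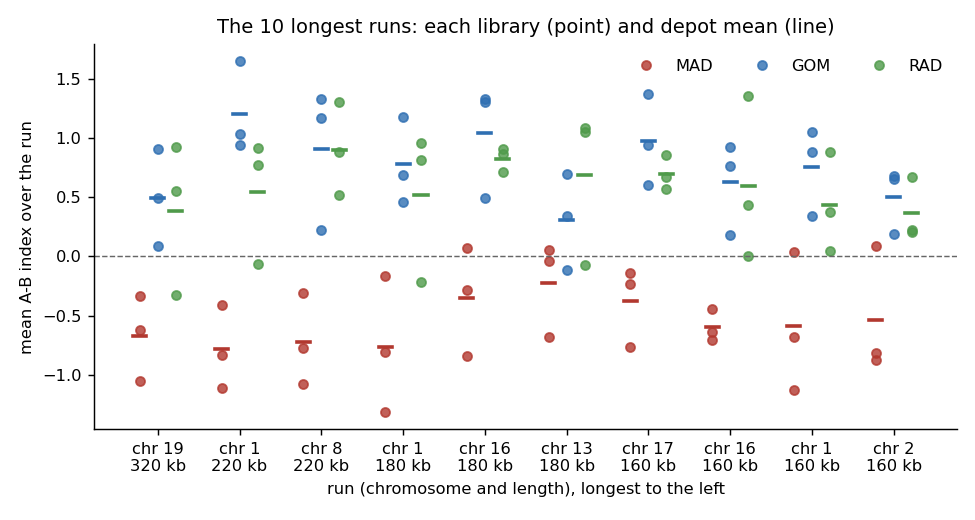
Mean A-B index over each of the 10 longest runs of bins in B only in MAD (vertical axis, index units; horizontal axis, chromosome and length of the run). Points are libraries, short lines are depot means (*n* = 3), with MAD left of GOM and RAD; the depot means of MAD lie between -0.785 and -0.222 and those of GOM and RAD between 0.309 and 1.21.

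The largest shifts among bins on which all 9 libraries agreed were found on chromosome 10, all 5 of them. The bin from 75280001 to 75300000 had an index of -3.43, -3.28 and -0.897 in MAD, against 3.15, 1.63 and 3.93 in GOM and 3.52, 5.92 and 2.99 in RAD, a shift of -6.06. Its neighbour from 75260001 was shifted by -4.54, those from 63860001 and 63920001 by -4.26 and -3.91, and that from 80860001 by -3.83. Chromosome 10 held 67 of the 1631 bins but 22 of the 42 that were shifted by at least 2.

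In the depot means these were narrow patches of A in GOM and RAD within a stretch of B. The run from 75260001 to 75320000 (3 bins) averaged -2.14 in MAD, 2.01 in GOM and 1.96 in RAD, while the 10 bins on each side averaged -1.12 in MAD, -1.55 in GOM and -1.50 in RAD. These flanks included bins with almost no signal and bins on which libraries disagreed. At 60 kb left of the centre of the run, all 9 libraries lay between 0.00537 and 0.0107. At 80 kb left, RAD read 3.31, -1.35 and 2.20 in sheep 1 to 3. Around the run from 63840001 to 63900000 the flanks averaged -2.31, -1.88 and -1.81 in MAD, GOM and RAD, and around that from 80820001 to 80900000 -1.17, -0.388 and -0.752. The difference between run and flanks was -1.02, 1.01 and 0.35 in MAD for these 3 runs, against 3.56, 4.59 and 3.11 in GOM and 3.46, 4.13 and 2.52 in RAD. The flanks held 1, 2 and 2 chosen bins, which were not left out of the averages. The surrounding stretch, from 63 to 81 Mb and bounded after its values were seen, held 41 of the chosen bins. Of its 900 bins, 31 were shifted by at least 2 downward and 43 by at least 2 upward in MAD. Over all 129241 bins these counts were 103 and 426. The median SD within depots was 0.580 in the stretch against 0.488 over all bins. At the 5 bins of largest shift the SD within a depot ran from 0.275 to 1.95. At the bin from 75280001 it was 1.42 in MAD, 1.17 in GOM and 1.56 in RAD.

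**Figure D3:**
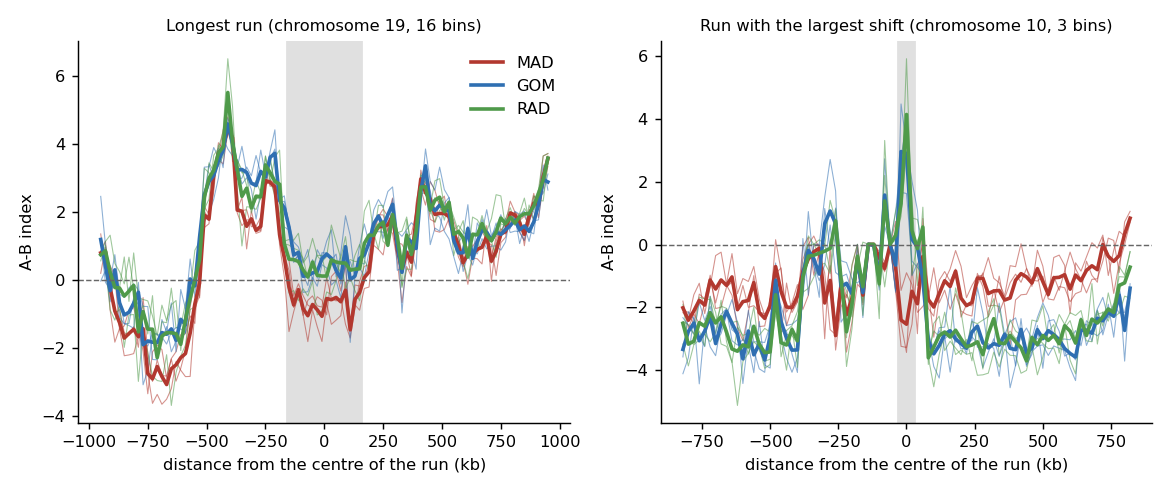
A-B index (vertical axis, index units) around the longest run, on chromosome 19 (left), and the run with the largest shift, on chromosome 10 (right), by distance from the centre of the run in kb. Thin lines are libraries, thick lines depot means and the shaded band is the run; in the left panel MAD falls to a mean of -0.671 over the run, against 0.498 in GOM and 0.385 in RAD, and in the right panel the sharp peak of GOM and RAD is missing in MAD.

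To read the bins in animals that had not chosen them, the criterion was applied to 2 sheep and the third was measured. It chose 1711, 1691 and 1675 bins with sheep 1, 2 and 3 left out. In the sheep left out, the median shift was -0.53, -0.40 and -0.35, against 0.19, 0.19 and 0.20 over all bins of the same sheep. MAD lay below the mean of GOM and RAD in 73.6%, 70.3% and 69.6% of the chosen bins, against 39.2%, 39.2% and 38.8% of all bins. The B state itself carried over less. The MAD index was below 0 in 61.1%, 47.1% and 51.5% of the chosen bins, against 50.3%, 50.1% and 50.1% of all bins. The full criterion held again in 19.9%, 21.9% and 21.2% of them, against 1.48%, 1.56% and 1.42% of all bins. Bins chosen by opposite signs lie near 0, where signs change easily, so all bins are not a like background for this share. No share over other bins near 0 was taken. Bins chosen for B only in GOM met their criterion again in 22.8%, 10.1% and 17.6%, and those for RAD in 18.5%, 22.8% and 16.6%. In the choosing sheep the median shift had been -0.83, -0.89 and -0.91, so 63.9%, 45.2% and 39.0% of it was found in the third. With 3 animals an exact sign-flip test cannot go below *p* = 0.25, two-sided, so no test is given.

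The shift carried over more in longer runs, in all 3 depots. For MAD, in the sheep left out, the median was -0.28, -0.19 and -0.16 in single bins, -0.71, -0.46 and -0.50 in pairs and -1.03, -0.87 and -0.76 in runs of at least 3 bins, of which 90.1%, 90.8% and 86.6% were lower in MAD. In runs of at least 3 bins the medians were -0.94, -0.38 and -0.64 for B only in GOM and -0.67, -0.71 and -0.52 for B only in RAD. Over runs of any length, bins chosen the same way for B only in GOM had medians of -0.28, -0.05 and -0.33 in the sheep left out and those for B only in RAD -0.30, -0.47 and -0.19. Relative to all bins of the same sheep, MAD differed by -0.72, -0.59 and -0.55, GOM by -0.16, -0.13 and -0.29, and RAD by -0.25, -0.21 and -0.05. After quantile normalization the 3 depots overlapped, with -0.34, -0.19 and -0.32 for MAD, -0.32, -0.23 and -0.22 for GOM and -0.27, -0.31 and -0.22 for RAD. A carry-over was thus seen in all depots, and its larger size in MAD only in the index as deposited.

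The shift was not confined to the chosen bin. Averaged over the chosen bins in the sheep left out, it was -0.49 ± 0.096 at the bin itself (SD, *n* = 3 sheep), -0.44 ± 0.105 at 20 kb to the right, -0.33 ± 0.078 at 100 kb, -0.22 ± 0.076 at 200 kb and -0.05 ± 0.035 at 500 kb. At 1000 kb it was 0.06 ± 0.037, still below the mean over all bins of 0.20. Neighbours that were themselves chosen were kept in these averages. With chosen bins left out, the mean shift at 1 to 5 bins from a run was -0.31, -0.21 and -0.15 within the run's TAD. In another TAD it was -0.19, -0.10 and -0.10. At the centre the 3 sheep averaged -0.291, 0.0239 and -0.0594 in MAD, against 0.532, 0.630 and 0.222 in GOM and 0.0802, 0.315 and 0.497 in RAD. MAD was the lowest depot there in each sheep, though its mean lay below 0 only in sheep 1 and 3.

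**Figure D4:**
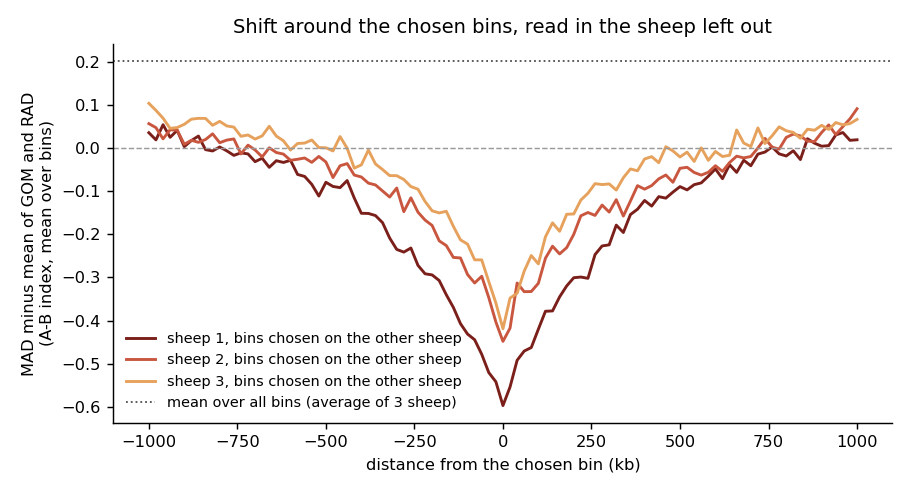
Mean difference in A-B index, MAD minus the mean of GOM and RAD (vertical axis), by distance in kb from bins that were chosen on the other sheep (horizontal axis), 1 line for each sheep left out. The 3 lines reach -0.597, -0.448 and -0.419 at the chosen bin and return toward 0 with distance, below the dotted line, which is the mean over all bins. Neighbours that were themselves chosen are included.

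The bins were found on all 25 autosomes examined, unevenly. The share was highest on chromosome 22 (65 bins, 2.33%), chromosome 16 (73 bins, 1.86%) and chromosome 18 (60 bins, 1.69%) and lowest on chromosome 25 (11 bins, 0.462%), chromosome 24 (12 bins, 0.557%) and chromosome 11 (19 bins, 0.623%). Chromosome 25 had more bins in B only in GOM (2.18%) and chromosome 16 in B only in RAD (2.02%). The last 5 Mb at either end of chromosomes held 6.93% of the bins and 9.67% of all bins.

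At a larger scale, 657 of 2596 windows of 1 Mb held at least 1 of the bins and 16 held at least 10. The densest, picked after the counts were seen, was chromosome 1 from 118000001 to 119000000, with 26 of its 50 bins, followed by chromosome 17 from 18000001 to 19000000 with 23 and chromosome 16 from 21000001 to 22000000 with 21. Each of these windows also held 1 or more of the 10 longest runs. Over the whole window of chromosome 1 the index was 0.691, 1.24 and 1.19 in MAD, against 2.81, 2.27 and 2.03 in GOM and 1.27, 2.05 and 2.35 in RAD, so that the megabase was A in every depot but weaker in MAD. Over that of chromosome 17 it was -0.385, -0.992 and -0.596 in MAD, against 0.274, 0.723 and -0.104 in GOM and 0.315, 0.213 and 0.0868 in RAD, so that the depot means of the megabase were on opposite sides. The MAD libraries did not overlap the others in either window. The choice of bins used these libraries, so this describes the windows and adds no evidence.

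TADs had been called by the authors from local insulation on 1 merged map per depot, with 4049 TADs in MAD, 4265 in GOM and 4072 in RAD outside chromosome 14 and median lengths of 500, 480 and 500 kb. The maps come from the same reads as the index but were not used to choose the bins. A boundary is taken here as the single 20-kb bin between adjacent TADs. The bins in B only in MAD were placed relative to boundaries much as the genome is. In the MAD map 161 of them (9.87%, 95% Wilson interval 8.52 to 11.4) lay within 1 bin of a boundary, against 9.22% of all bins, and in the GOM and RAD maps 9.5% and 9.2% did, against 9.65% and 9.25%. The median distance to a boundary of the MAD map was 140 kb, against 160 kb over all bins. Intervals cover counting error only and treat neighbouring bins as independent, so they are too narrow.

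Most runs lay inside a single TAD. Bins in runs of at least 3 were within 1 bin of a MAD boundary in 7.17% of cases (5.13 to 9.95), and the 84 bins on which all libraries agreed in 3 cases (3.57%, 1.22 to 9.98). Of the 105 runs of at least 3 bins, 95 (90.5%) lay inside a single TAD of the MAD map, 8 (7.62%) contained a boundary and 2 lay outside TADs. Over every stretch of the same lengths outside chromosome 14, 85.3% lay inside a single TAD and 13.1% contained a boundary. This difference was not tested. The runs inside a TAD covered a median of 13.8% of it and at most 55.0%, so none of these runs filled its TAD. A boundary lay among the 2 bins outside or the 2 bins inside an end in 25 runs (23.8%), against 22.8% of such stretches. TADs holding a chosen bin numbered 675 of 4049 in the MAD map.

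**Figure D5:**
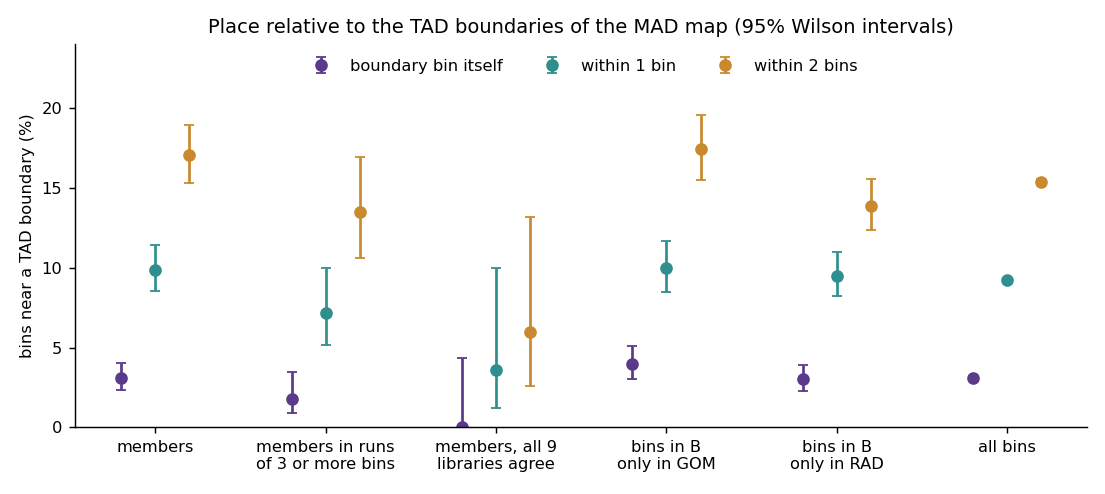
Share of bins at a TAD boundary of the MAD map (vertical axis, %), as the boundary bin itself, within 1 bin or within 2 bins, for the bins in B only in MAD (members), their subsets, bins in B only in GOM or RAD, and all bins. Error bars are 95% Wilson intervals; within 1 bin, members lie at 9.87% and all bins at 9.22%.

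The boundaries near the bins were largely common to the depots. Of 138 boundaries of the MAD map in or beside a chosen bin, 121 (87.7%) had a boundary within 1 bin in both other maps and 9 (6.52%) in neither, against 83.6% and 6.27% of all 3973 boundaries of that map. The longest run began at the first bin of a 660-kb TAD, from 13320001 to 13980000, that had the same ends in all 3 maps, and the other 17 bins of that TAD, none of them chosen, had a mean shift of -0.19. The 220-kb run of chromosome 1 lay in a TAD of 400 kb in the MAD map, and 5 of its 9 other bins were themselves chosen. The 4 that were not had a mean shift of -1.15. Of the 10 longest runs, 8 lay in a single TAD in all 3 maps. The run of chromosome 16 from 21000001 contained a boundary in all 3 maps, and that of chromosome 13 contained a boundary in the MAD map alone.

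The neighbourhood of a run differed with the TAD. With bins again chosen on 2 sheep and read in the third, bins at 1 to 5 bins from the end of a run had a mean shift of -0.31, -0.21 and -0.15 where they shared the run's TAD in the MAD map, against -0.19, -0.10 and -0.10 where they lay in another TAD. At 6 to 10 bins the means were -0.24, -0.15 and -0.09 in the same TAD, against -0.09, -0.02 and 0.02 in another. Chosen bins were left out of these means. The same TAD had the lower mean in all 3 sheep at both distances. Bins in another TAD lie farther from the run on average within each range, and this was not adjusted for.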

How the data were processed

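Hi-C libraries of MAD, GOM and RAD of 3 sheep were analysed; mouse libraries and RNA-seq were not used here. The authors aligned reads with BWA and Juicer, normalized contact maps by the Knight-Ruiz method, set coarse A and B regions per chromosome and library by principal components at 100 kb, and deposited the A-B index as a signed score per 20-kb bin, with the TADs of merged maps from insulation as positions. Per-library depth is not in the index, which limits what can be said of its precision. Coordinates are of Oar_rambouillet_v1.0, from 1. Genes and sequences in the bins were not analysed here, as no annotation of that build was used.

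Bins were counted over 26 autosomes and described without chromosome 14. The members, regions and lists were chosen with earlier results of these data known. Regions named are the 10 longest runs (ties by shift), the 5 largest shifts among bins where all 9 libraries agree, the 3 chromosomes with the largest and the 3 with the smallest share, and the 5 bins nearest the MAD threshold on each side. The test across bins was limma 3.58.1 in R 4.3.3, with a variance trend, all 9 libraries in 1 model and no block, checked on simulated data. The replicate number is the animal. After depot means were taken off, libraries of the same sheep correlated at 0.143 on average (0.0168 to 0.262 over 9 pairs). Libraries of different sheep and depots correlated at -0.0717 on average (-0.142 to 0.0353 over 18 pairs). Taking off depot means ties these 2 averages together, so they are not separate evidence. *P*-values rest on 3 animals per depot. Python 3.11.15, numpy 2.4.6, pandas 2.3.3, statsmodels 0.14.6 and matplotlib 3.10.9 were used. Alternatives covered the scaling and centring of the index, margins, agreement, window size, the block, boundary tolerance and leaving out each library or sheep.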

Additional observations from a re-analysis of the deposited data

How the results depend on the processing

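The number of bins in B only in MAD, 1631, was 2711 after quantile normalization, 2541 with library medians removed and 3043 with centring by chromosome. It was 396 with depot means at least 0.25 from 0, 101 at 0.5, 11 at 1 (chosen after seeing the data), 84 with all 9 libraries agreeing and 248 windows at 100 kb. Leaving out a library or a sheep gave 1440 to 1846, but the bins changed: of the 1631, 1294 to 1529 were kept without a library, 1058, 1031 and 1023 without sheep 1, 2 and 3, and 1020 with the median of the 3 libraries in place of the mean. The number of runs of at least 3 bins, 105, was 181 both with gaps of 1 bin joined and after quantile normalization, and 81 to 122 without a library. The median shift was -0.94 after quantile normalization and -0.86 to -0.75 without a library. The mean of the medians in the sheep left out, -0.43, was -0.29 after quantile normalization and -0.31 with library medians removed. The share of bins near a MAD boundary, 9.87% within 1 bin, was 3.07% within 0 and 17.0% within 2 bins, against 3.07% and 15.4% of all bins, and 3.57% where all 9 libraries agreed and 7.17% in runs of at least 3 bins (the last chosen after seeing the data). The cause was not tested in any of these.

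By limma, 0 of 132797 bins differed between MAD and the mean of GOM and RAD at an adjusted *p* under 0.05. At an unadjusted *p* under 0.05 there were 24812, of which 6166 were lower and 18646 higher in MAD. With the sheep as a replicate block, the pairing of depots by animal, the count was also 0, with 25098 at the unadjusted threshold. It was 955 after quantile normalization (466 lower and 489 higher in MAD), 3530 of 26570 windows at 100 kb (764 lower and 2766 higher in MAD) and 0 to 2 without a library, 2 of them without MAD replicate 1. Expression of genes in the bins was not run.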
